A study of Mus musculus with 6 samples.

Results

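MPP8, TASOR and periphilin form the core of the human silencing hub (HUSH), and the genes that encode them and their closest partners were followed after loss of MPP8 in the mouse brain. The 7 genes, out of 54532 gene identifiers in each library, were taken by name: Mphosph8 (MPP8), Fam208a (TASOR), Pphln1 (periphilin), Fam208b (TASOR2, the paralogue of TASOR), Morc2a, Setdb1 and Atf7ip. All 7 passed the filter on low counts and were tested. RNA was measured in whole brains of C57BL/6J mice at postnatal day 14, with 1 library per brain. The 3 control brains were Mphosph8fl/+ Nestin-Cre+ and the 3 mutant brains Mphosph8fl/fl Nestin-Cre+ per the labels, so every brain carried the Cre transgene and at least 1 floxed allele, whereas the study's text names the controls by the transgene alone. Nestin-Cre is active in neural progenitors and the cells they give rise to, and cells of other lineages in a whole brain, such as microglia and vessels, are not its target. The floxed allele derives from 1 embryonic stem cell clone per the study's methods.

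As background, HUSH silences transcription from chromatin that carries trimethylated histone H3 lysine 9 (H3K9me3). The chromodomain of MPP8 binds this mark, TASOR is the scaffold that holds the subunits together, and periphilin joins through TASOR. The methyltransferase SETDB1 writes the mark, ATF7IP stabilises SETDB1 in the nucleus, and MORC2 is an ATPase that compacts the chromatin. Known targets include young LINE-1 elements and long transcription units without introns.

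The floxed part of Mphosph8 is exon 4 of 14 in the annotated coding transcript, at chr14:56676522-56676618 (GRCm38, plus strand), and lies wholly within the coding sequence. Its 97 bases hold 32 whole codons and 1 base left over, so joining exon 3 to exon 5 shifts the reading frame. The sequences are shown because they set what a mutant transcript can encode. In the first, the capital marks the base left over. The second holds the 117 bases read after exon 3 once exon 4 is gone, all from exon 5, and its capitals mark the first stop codon in the shifted frame.
Mphosph8 exon 4: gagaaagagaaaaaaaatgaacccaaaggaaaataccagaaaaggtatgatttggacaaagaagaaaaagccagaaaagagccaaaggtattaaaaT
Mphosph8 after the exon 3 to exon 5 joint: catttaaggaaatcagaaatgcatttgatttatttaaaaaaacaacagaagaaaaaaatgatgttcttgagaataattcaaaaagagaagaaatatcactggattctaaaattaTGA
By the annotation, 406 codons precede exon 4 and 38 more are read before this stop, 444 in all against 858 in the full frame. These are properties of the reference sequence and were not measured in the libraries. The study states that the out-of-frame mRNA undergoes nonsense-mediated decay. It reports loss of Mphosph8 in whole brains by quantitative RT-PCR for the mRNA and by immunoblot for the protein. Decay was not tested here. Exon 4 makes up only 2.7% of the gene's 3586 annotated exon bases, and 4 of its 5 annotated transcripts lack it, so the gene's count rests almost wholly on other exons.

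Library totals ranged from 12956880 to 15223424 counts. Control replicate 3 stood apart in sex-linked genes, with 1338 reads of Ddx3y and 27 of Xist, while the other 5 libraries had 0 reads of Ddx3y, although the methods describe the animals as matched for sex. Values without it are also given for Mphosph8, Fam208a and Morc2a. Marker sums and levels per kilobase are given only with it.

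Mphosph8 (ENSMUSG00000079184, chromosome 14, 56668248 to 56697430) is the targeted gene, so its level checks the labels. It was at 55.8, 48.6 and 70.7 CPM (counts scaled to a common library size) in the 3 control brains and at 33.1, 27.2 and 26.5 CPM in the 3 mutant brains. All mutant values lay below all control values. Reads of the gene numbered 664 to 1048 in the control libraries and 364 to 414 in the mutant libraries. The mean fell from 58.4 ± 11.3 to 28.9 ± 3.63 CPM (SD, n = 3). On the log2 scale this was -1.02 ± 0.12 (SE; edgeR adjusted p 0.000157). The mutants thus kept 0.49 times the control level, with a 95% interval from 0.41 to 0.59, and the control level itself came from brains labelled with 1 floxed allele. The highest control was replicate 3, and without it the log2 fold change was -0.85 (edgeR adjusted p 0.000943), which is under 2-fold, as were the values of -0.98 and -0.96 without mutant replicates 2 and 3. Fewer cells that transcribe the gene and less of its RNA per cell cannot be told apart in whole-brain RNA. None of the 3583 words of 50 bases in its transcripts occurred in another annotated gene. Its 3' end overlaps the noncoding RNA Gm16973 on the opposite strand over 384 exon bases. Gm16973 was at 7.11 ± 1.5 CPM in the controls and 8.16 ± 1.89 CPM in the mutants, not past the threshold (edgeR adjusted p 0.933).

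Of the 7 genes, 1 was lower and 2 were higher at an edgeR adjusted p under 0.05, 3 in all, against 0.0956%, 0.532% and 0.628% of the 16731 genes tested. The lower gene is the targeted one. The 2 higher genes were Fam208a and Morc2a, and neither was among the 0.353% of genes that were also more than 2-fold higher. Mphosph8 was the gene behind the 0.00598% that were more than 2-fold lower. In 3 of the 7 genes the groups did not overlap, against 11.6% of all genes tested, with 2 higher (background 6.23%) and 1 lower (background 5.42%). The median log2 fold change of the 7 was 0.02, and that of all genes tested was -0.007.

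**Figure D1:**
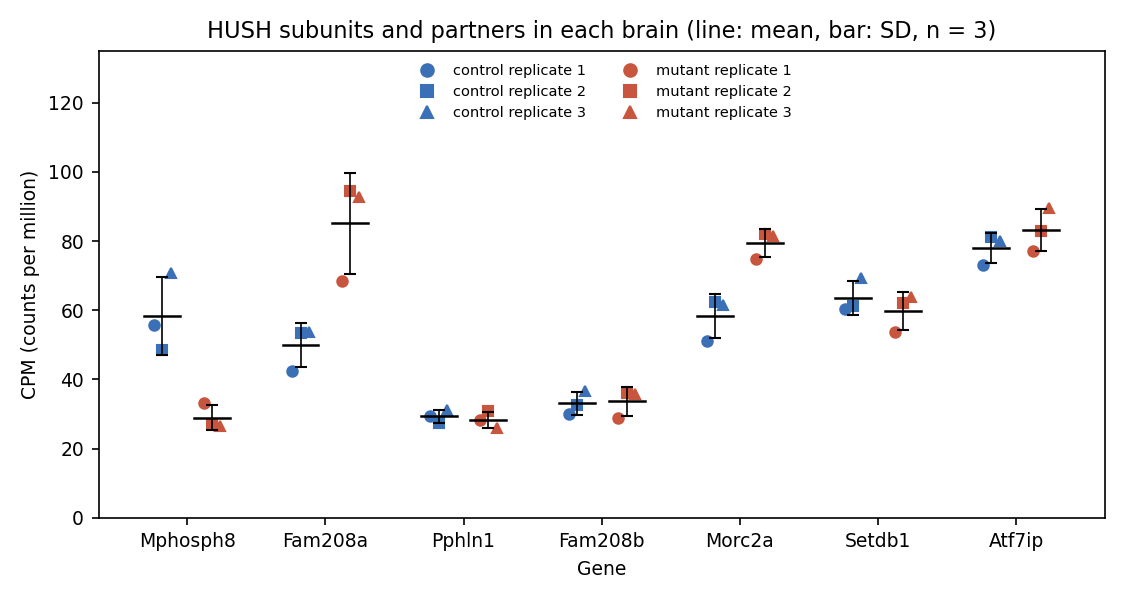
Level of each gene in CPM (y axis, linear, from 0) in the 6 brains, with controls in blue and mutants in red, the symbol giving the replicate, the black line the mean and the bar the SD (n = 3). Mutants lie below controls for Mphosph8 and above them for Fam208a and Morc2a, and the groups overlap for the other 4 genes.

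Other features of the libraries moved with the groups. Of 8 oligodendrocyte markers, 3 were lower at an edgeR adjusted p under 0.05 (Mal, Mog and Cldn11) and all 8 had a negative log2 fold change, from -0.53 for Mal to -0.24 for Cnp, with a median of -0.47. Their summed level was 21889 to 26217 CPM in the controls and 17339 to 20113 CPM in the mutants. The 4 choroid plexus markers summed to 1417 to 1709 CPM in the controls and 1046 to 1251 CPM in the mutants, with 0 of 4 past the threshold. Nearly all of this sum is Ttr, at 1671, 1443 and 1381 CPM in the controls and 1069, 1214 and 1018 CPM in the mutants (edgeR adjusted p 0.0764), and the groups overlapped for the other 3 markers, Folr1, Kcne2 and Clic6. Of the neuronal markers 0 of 10 were past the threshold, and their sums of 4915 to 5069 and 4884 to 5129 CPM overlapped between the groups. No marker passed the threshold among 8 for astrocytes, 4 for oligodendrocyte progenitors, 8 for microglia, 4 for endothelium or 3 for blood, and no marker was at 0. Of the 4 progenitor markers, 3 had a negative log2 fold change and 2 an unadjusted edgeR p under 0.05. They ran from -0.29 for Sox10 (edgeR adjusted p 0.21) to 0.01 for Pdgfra. Astrocyte markers ran from -0.24 for Gfap to 0.26 for Aldh1l1, 5 positive and 3 negative. Neuronal markers ran from -0.16 for Snap25 to 0.21 for Gad2, 3 positive and 7 negative. Each of these 2 lists held 1 marker with an unadjusted edgeR p under 0.05. The groups did not overlap in 3 of 8 astrocyte and 2 of 10 neuronal markers, against 11.6% of all genes tested. The part of these shifts in the values of the members was not tested.

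Fam208a (ENSMUSG00000040651, chromosome 14, 27428834 to 27483555), which encodes the scaffold TASOR, was at 42.5, 53.5 and 53.8 CPM in the controls and at 68.4, 94.5 and 92.6 CPM in the mutants. Every mutant brain stood above every control brain, and mutant replicate 1 was the nearest to the controls. The mean rose from 49.9 ± 6.43 to 85.2 ± 14.5 CPM (SD, n = 3), a 1.71-fold rise with a 95% interval from 1.44 to 2.02, at a log2 fold change of 0.77 ± 0.12 (SE, edgeR adjusted p 0.00141). Its log2 fold change stayed between 0.67 and 0.91 when any 1 library was left out, with edgeR adjusted p from 8.5e-06 to 0.0254. It was 0.83 without control replicate 3 and 0.91 without mutant replicate 1. Among all genes tested, 1.48% had a larger absolute log2 fold change. Fam208a lies on the same chromosome as the targeted gene, 29184692 bases away. The nearest tested genes on its sides did not pass the threshold. Arhgef3, upstream, was at 37.3 ± 2.84 CPM in the controls and 35.2 ± 1.16 CPM in the mutants (edgeR adjusted p 0.953). Ccdc66, which overlaps the 3' end of Fam208a on the opposite strand over 1763 of 13627 exon bases, was at 20.5 ± 0.509 and 17.6 ± 0.653 CPM (edgeR adjusted p 0.725), with all mutant values below all control values. The part of Ccdc66 reads in the Fam208a value was not tested.

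Its paralogue Fam208b (ENSMUSG00000033799, chromosome 13, 3566035 to 3611108), which encodes TASOR2, was at 30.1, 32.7 and 36.7 CPM in the controls and 28.8, 36.2 and 35.9 CPM in the mutants. The groups overlapped, and the fold change was 1.02 with a 95% interval from 0.87 to 1.19 (edgeR adjusted p 0.994). The paralogues could be told apart in the counts, since 0 of the 13803 words of 50 bases in Fam208a transcripts occur in Fam208b. The ratio of Fam208a to Fam208b per kilobase of annotated exon was 1.29, 1.49 and 1.34 in the control brains and 2.17, 2.39 and 2.36 in the mutant brains. A ratio within a library does not depend on how libraries are scaled. The mean log2 ratio was 0.75 higher in mutants, with no overlap between the groups. The exact permutation p was 0.1 (two-sided), which is the lowest value that 3 against 3 brains can give. The direction of this ratio follows from the levels of both genes given above, so it is a description.

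The third core subunit, Pphln1 (ENSMUSG00000036167, chromosome 15, 93398350 to 93491510), which encodes periphilin, an RNA-binding protein, was at 29.5, 27.4 and 31.1 CPM in the controls and 28.2, 30.8 and 26.1 CPM in the mutants. The values of both groups were interleaved. The fold change was 0.97 with a 95% interval from 0.84 to 1.12 (edgeR adjusted p 0.984), so at this depth a change as large as that of Fam208a lay outside the interval. Of its 4613 words of 50 bases, 1.84% occur in other genes. The 3 core subunits therefore differed in their values: 1 lower, 1 higher and 1 with overlapping groups.

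Morc2a (ENSMUSG00000034543, chromosome 11, 3649191 to 3690477), the ATPase partner of HUSH, was at 51.1, 62.5 and 61.5 CPM in the controls and 74.7, 82.0 and 81.5 CPM in the mutants. Mutant brains all stood above control brains, and within each group replicate 1 was the lowest, as it was for Fam208a. The mean rose from 58.4 ± 6.28 to 79.4 ± 4.1 CPM (SD, n = 3), a 1.36-fold rise with a 95% interval from 1.2 to 1.55, at a log2 fold change of 0.45 ± 0.09 (SE, edgeR adjusted p 0.0208). The call depended on which libraries were included. The log2 fold change stayed positive when any 1 library was left out, from 0.36 to 0.50, but only the fit without mutant replicate 1 kept the edgeR adjusted p under 0.05, at 0.00705. It was 0.116 without control replicate 1, 0.051 without control replicate 2, 0.0512 without control replicate 3, 0.129 without mutant replicate 2 and 0.104 without mutant replicate 3. The 5' end of Morc2a overlaps the long noncoding RNA Tug1 on the opposite strand over 483 of 6422 exon bases. Tug1 was at 95.1 ± 9.38 CPM in the controls and 107 ± 5.17 CPM in the mutants, a log2 fold change of 0.17 ± 0.09 (SE) that did not pass the threshold (edgeR adjusted p 0.804), with all mutant values above all control values. The counts behaved as if strand was used, and the part of Tug1 reads in the Morc2a value was not tested. On the other side Osbp2 was at 67.2 ± 4.09 and 67.6 ± 3.36 CPM.

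**Figure D2:**
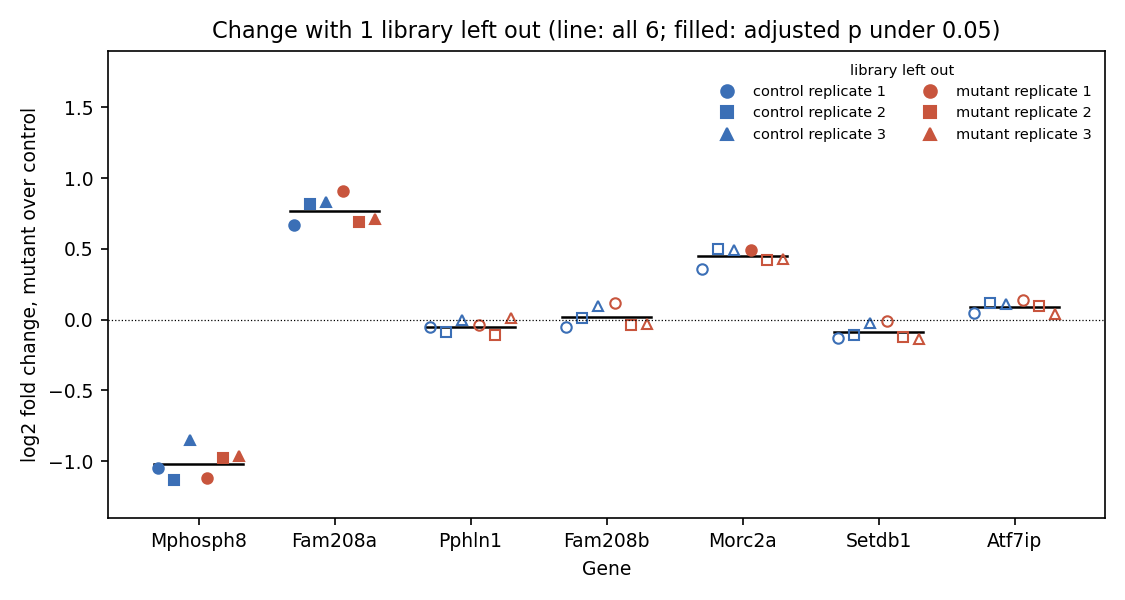
log2 fold change (mutant over control, y axis) of each gene in the edgeR fit on all 6 libraries (black line) and in the 6 fits that leave out 1 library (symbols, coloured by the group of the library left out), filled where the adjusted p was under 0.05. Mphosph8 and Fam208a are filled in every fit, and Morc2a only in the fit without mutant replicate 1.

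Setdb1 (ENSMUSG00000015697, chromosome 3, 95323525 to 95357202), the methyltransferase, was at 60.3, 61.2 and 69.3 CPM in the controls and 53.6, 62.1 and 63.9 CPM in the mutants, with overlap between the groups. Its fold change was 0.94 with a 95% interval from 0.83 to 1.07 (edgeR adjusted p 0.947). Of its 6946 words of 50 bases, 7.96% occur in other genes, and 536 of these 553 words are in Gm4349, so its count is less certain than those of the other members. Its exons also overlap 324 bases of exons on the opposite strand, those of Cers2 and Gm37500. Cers2 was at 140.1 ± 9.18 and 114 ± 6.09 CPM and did not pass the threshold (edgeR adjusted p 0.165), with all mutant values below all control values. Atf7ip (ENSMUSG00000030213, chromosome 6, 136506167 to 136610862), which encodes the partner that stabilises SETDB1, was at 73.0, 81.1 and 79.9 CPM in the controls and 77.2, 82.9 and 89.5 CPM in the mutants. The groups overlapped here as well, with a fold change of 1.07 and a 95% interval from 0.95 to 1.2 (edgeR adjusted p 0.931). The intervals of both genes leave out a fold change as large as the 1.36 of Morc2a.

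Setdb1 served as a reference within the library for the 2 genes that rose. The ratio of Morc2a to Setdb1, per kilobase of annotated exon, was 0.905, 1.09 and 0.947 in the controls and 1.49, 1.41 and 1.36 in mutants. The ratio of Fam208a to Setdb1 was 0.354, 0.439 and 0.39 in the controls and 0.643, 0.765 and 0.728 in mutants. Neither ratio overlapped between the groups, and the changes were 1.45-fold and 1.81-fold. For both the exact permutation p was 0.1 (two-sided), again the lowest value possible. Fam208a over Mphosph8 was 0.2, 0.289 and 0.2 in the control brains and 0.544, 0.913 and 0.92 in the mutant brains, a 3.4-fold change, with mutant replicate 1 again nearest to the controls. The direction of each of these ratios follows from the levels of its genes given above, as does the lack of overlap of the last. All are descriptions, and the permutation p adds no support of its own.

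**Figure D3:**
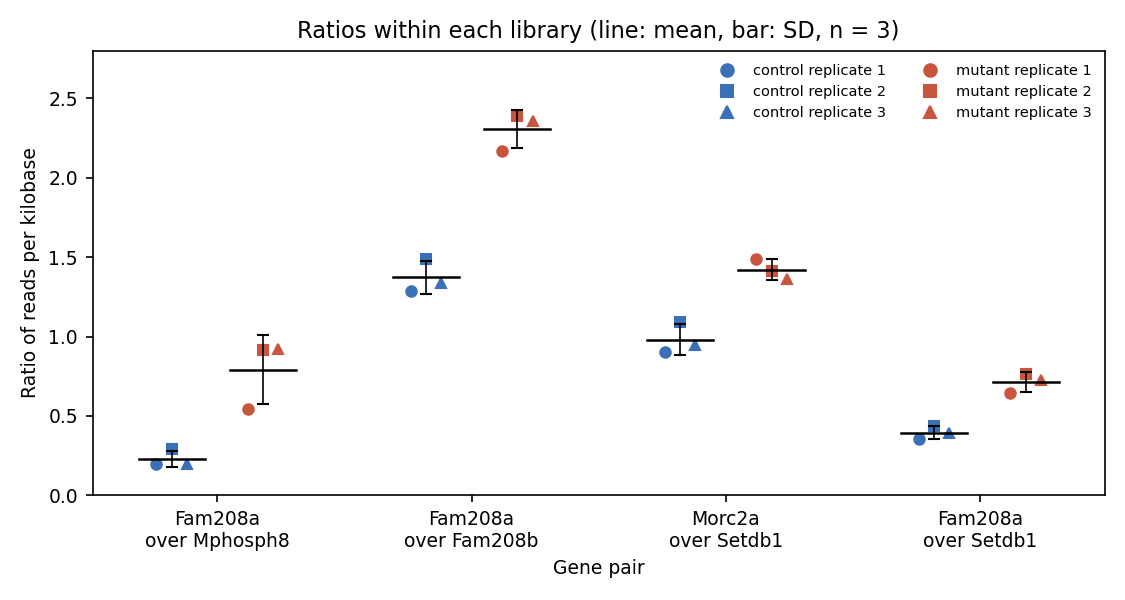
Ratio of reads per kilobase of annotated exon for 4 pairs of genes within each library (y axis, linear, from 0), with controls in blue, mutants in red, the line at the mean and the bar at the SD (n = 3). In each pair the 3 mutant values lie above the 3 control values.

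Levels of different genes were compared per kilobase of annotated exon, merged over all transcripts. In control brains Mphosph8 was the highest, at 16.3 ± 3.14 CPM per kilobase (SD, n = 3). Setdb1, at 9.28 ± 0.723, and Morc2a, at 9.09 ± 0.978, came next and overlapped each other. Pphln1 followed at 6.45 ± 0.41 CPM per kilobase, below the range of both and above the rest. Atf7ip at 3.76 ± 0.21 and Fam208a at 3.66 ± 0.472 CPM per kilobase also overlapped, and Fam208b was the lowest at 2.66 ± 0.269. Per kilobase, the transcript of TASOR was thus among the least abundant of the 7 in control brains. In mutant brains the order changed. Morc2a was the highest at 12.4 ± 0.638 CPM per kilobase, above the ranges of Setdb1 at 8.73 ± 0.806 and Mphosph8 at 8.07 ± 1.01, which overlapped. Fam208a at 6.25 ± 1.07 and Pphln1 at 6.25 ± 0.521 stood side by side, followed by Atf7ip at 4.01 ± 0.296 and Fam208b at 2.7 ± 0.337.

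The order depends in part on the length used. With the principal coding transcript in place of merged exons, Mphosph8 was still the highest in controls at 19.9 ± 3.84 CPM per kilobase and Fam208b the lowest at 3.98 ± 0.402. Atf7ip, whose merged exons span 20726 bases against 8059 in its principal transcript, moved above Pphln1, at 9.68 ± 0.541 against 8.75 ± 0.557. On this scale Mphosph8 was the fifth of the 7 in mutant brains, at 9.85 ± 1.23, and the third on the scale of merged exons. Fam208a was the third in mutant brains by principal transcript, at 11.2 ± 1.91 against 8.47 ± 0.707 for Pphln1. By merged exons the same genes stood side by side. The level of a ratio between genes depends on the length used as well, but its change between groups does not. Comparisons of the same gene between groups do not depend on its length.

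**Figure D4:**
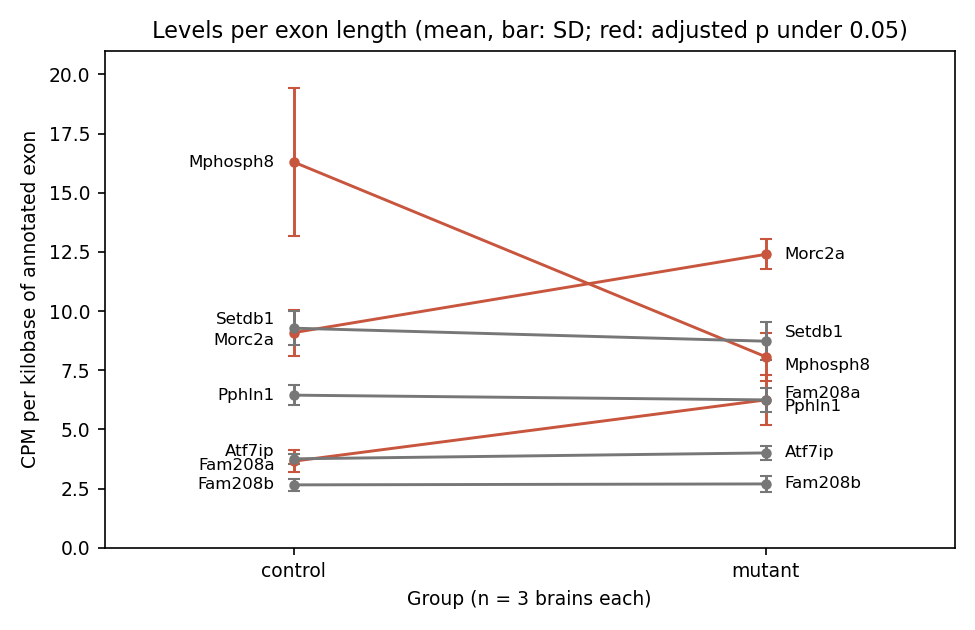
Mean level in CPM per kilobase of annotated exon (y axis, linear, from 0) in the control and mutant brains (x axis, n = 3 each), with bars at the SD and red for genes with an adjusted p under 0.05. The line of Mphosph8 falls from 16.3 to 8.07, and Morc2a becomes the highest at 12.4.

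The sequences before the RefSeq starts of Fam208a and Morc2a are shown because these are the members that were higher in mutants. They are the 250 bases before the RefSeq start of each gene (GRCm38.p6, plus strand), at chr14:27428584-27428833 for Fam208a and chr11:3649187-3649436 for the first of the starts listed for Morc2a. The window of Fam208a ends where the gene begins in GENCODE M21, whereas Morc2a begins at 3649191 there, so almost the whole Morc2a window lies inside the annotated gene, and all of it inside Tug1 on the opposite strand. Capitals mark CCAAT boxes (CCAAT) and GC boxes (GGGCGG), each searched on both strands, with overlapping matches joined.
Fam208a before the RefSeq start: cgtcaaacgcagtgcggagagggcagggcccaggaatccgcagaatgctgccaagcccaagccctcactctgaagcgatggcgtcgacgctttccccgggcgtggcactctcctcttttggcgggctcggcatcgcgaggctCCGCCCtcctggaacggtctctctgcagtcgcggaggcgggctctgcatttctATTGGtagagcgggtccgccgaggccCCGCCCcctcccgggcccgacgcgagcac
Morc2a before the RefSeq start: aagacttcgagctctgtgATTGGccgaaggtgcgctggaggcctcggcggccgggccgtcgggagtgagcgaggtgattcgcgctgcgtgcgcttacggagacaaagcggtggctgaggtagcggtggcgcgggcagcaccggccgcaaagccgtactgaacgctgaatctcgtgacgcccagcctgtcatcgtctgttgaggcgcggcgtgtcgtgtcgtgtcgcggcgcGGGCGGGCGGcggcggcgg
Each held 1 CCAAT box and 2 GC boxes. Both motifs are common, since 33.8% of 32851 promoter windows of the same length hold the first and 32.7% the second. CG dinucleotides numbered 27 in the Fam208a window and 39 in the Morc2a window, against a median of 6 over all windows. A second start listed for Morc2a had 0 CG dinucleotides and none of these motifs in its window. The first listed starts of the other members had 13 (Setdb1) to 46 (Pphln1) CG dinucleotides, so the windows of the higher genes lay within the range of the rest. The ETS motif CCGGAAG and the NRF1 motif were searched too, and their letters did not occur in the windows shown.

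Relatives and partners of the members and other writers and readers of H3K9 methylation were read from lists of 22 genes. They are called pathway genes here, although the lists are wider than HUSH, and 20 could be tested. Of these 0 passed the edgeR threshold, 2 had an unadjusted p under 0.05 (1089 of all 16731 genes tested did), and the other tools used, DESeq2 and limma-voom, also called 0. Their median log2 fold change was -0.00, with 10 above and 10 below 0. In 5 of the 20 the groups did not overlap, all with mutants higher, against 6.23% of all genes tested in that direction and 11.6% in either.

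Within the MORC family, Morc2b, the relative of Morc2a, was at 2.13, 1.9 and 1.42 CPM in the controls and 3.28, 3.14 and 3.05 CPM in the mutants. The groups did not overlap, but the log2 fold change of 0.79 ± 0.24 (SE) rested on 79 control and 125 mutant reads and did not pass (edgeR adjusted p 0.262). None of the 50-base words of Morc2a occurred in Morc2b. Morc3, a MORC protein of nuclear bodies, was at 29.0 ± 3.94 and 27.5 ± 4.01 CPM, the lowest log2 fold change of the family at -0.07. Morc1, known from the germ line, had 7 control and 4 mutant reads and was not tested.

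Among partners of SETDB1, Trim28, which encodes the corepressor KAP1, was at 117 ± 5.64 CPM in the controls and 114 ± 7.2 CPM in the mutants. Mbd1, a methyl-CpG binding protein, was at 55.4 ± 1.08 and 55.6 ± 3.96 CPM. Their log2 fold changes of -0.03 and 0.01 were the lowest and the highest of this list, and Atf7ip2, the relative of Atf7ip, had 1 read in each group and was not tested. The groups overlapped for both tested partners, and the 95% intervals on the log2 scale were -0.20 to 0.13 for Trim28 and -0.17 to 0.18 for Mbd1.

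The other H3K9 methyltransferases had log2 fold changes from -0.03 for Ehmt1 (GLP) to 0.38 for Suv39h2, with 0 of 5 past the threshold. Suv39h2 was at 3.44 ± 0.357 CPM in the controls and 4.47 ± 0.62 CPM in the mutants (edgeR adjusted p 0.804). Ehmt2, which encodes G9a, was at 188, 189 and 183 CPM in the controls and 212, 201 and 216 CPM in the mutants. Its groups did not overlap, as was also the case for Suv39h1 and Suv39h2, 3 of the 5 (background 6.23% for mutants higher). Its log2 fold change was 0.17 ± 0.08 (SE; edgeR adjusted p 0.726). The list as a whole thus held no called gene.

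Readers and chromodomain relatives ran from -0.12 for Cbx1 (HP1 beta) to 0.22 for Cdyl2 on the log2 scale. Cbx1 was at 80.4 ± 6.34 and 73.9 ± 9.04 CPM, with overlap. Cdyl2 was at 4.44 ± 0.739 and 5.17 ± 0.101 CPM, also with overlap. The last list holds genes that act on RNA. Their log2 fold changes lay between -0.08 for Zcchc8, part of the nuclear exosome targeting complex, and -0.01 for Rbm7, of the same complex, and in 5 of 5 genes the groups overlapped.

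**Figure D5:**
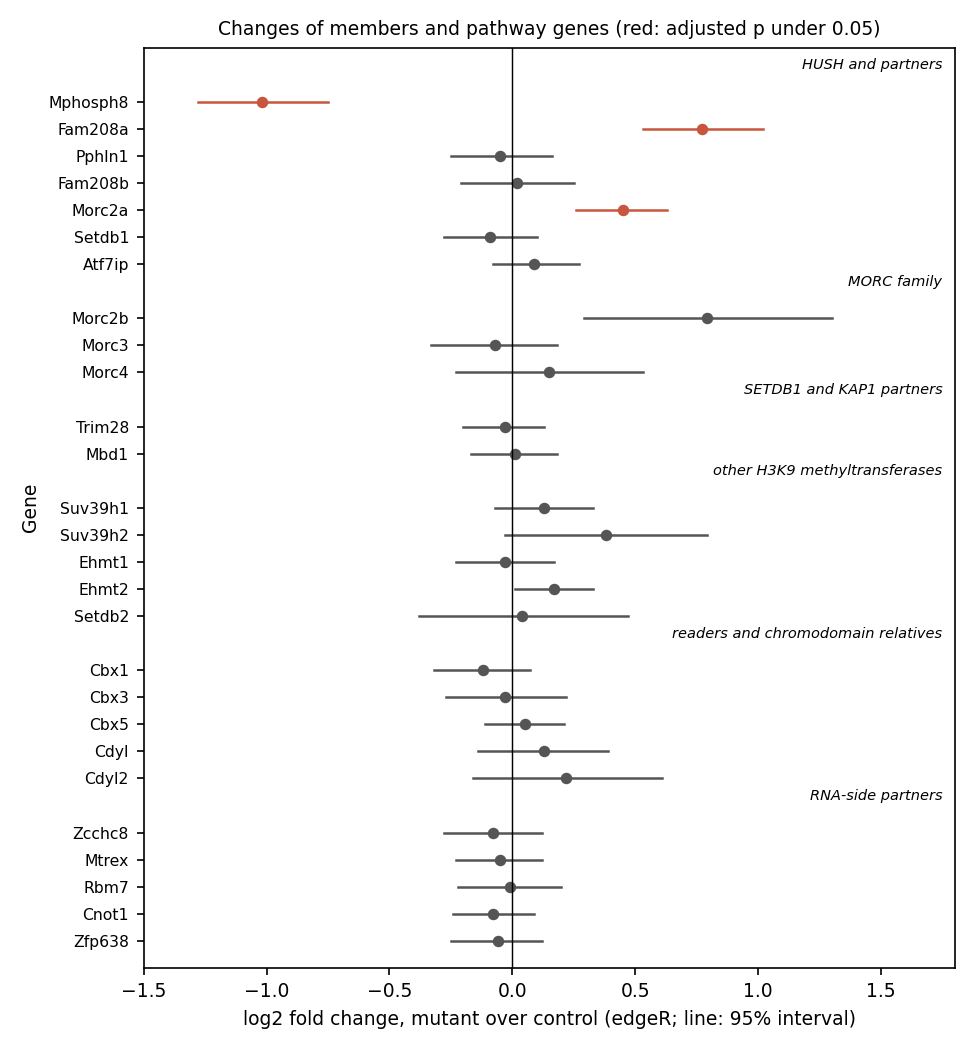
log2 fold change (mutant over control, x axis) with its 95% interval from edgeR for the 7 members and the 20 tested pathway genes, grouped by list, in red where the adjusted p was under 0.05. The red points are Mphosph8 at -1.02, Fam208a at 0.77 and Morc2a at 0.45, and Morc2b at 0.79 has the widest interval.

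For each of the 3 members past the threshold, the genes with the most similar course over the 6 libraries were found from the root-mean-square difference of log2 CPM values after each gene's mean was subtracted, over 15833 other genes with a mean of at least 1 CPM. For Mphosph8 these were Pcdhgc4 at 0.188, Pcdha12 at 0.215 and C230096K16Rik at 0.222, against a median of 0.539 over all genes. Pcdhgc4 and Pcdha12 are clustered protocadherins, cell adhesion molecules of neurons, and all 3 genes had mutant values below control values. Pcdhgc4 (edgeR adjusted p 0.00723) and Pcdha12 (0.0173) passed the threshold and C230096K16Rik (0.312) did not. These were picked for their likeness to Mphosph8 and say nothing of other protocadherins. For Fam208a the nearest were Zkscan7 at 0.087, Fam227b at 0.101 and Casp1 at 0.107 (median 0.443), each with all mutant values above all control values. Zkscan7 (ENSMUSG00000111063), annotated as a transcribed unprocessed pseudogene, rose from 6.53 ± 0.674 to 10.7 ± 1.79 CPM (SD, n = 3; edgeR adjusted p 0.0426), and Fam227b rose from 2.42 ± 0.197 to 4.83 ± 0.647 CPM (edgeR adjusted p 0.0241). Casp1 was at 2.47 ± 0.535 and 4.3 ± 0.512 CPM and did not pass (edgeR adjusted p 0.162). For Morc2a they were Gm2136 at 0.042, Myh3 at 0.049 and Marveld1 at 0.059 (median 0.280), and none of the 3 passed the threshold. These are descriptions over 6 libraries that fall into 2 groups.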

How the data were processed

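PolyA-selected RNA of 6 whole mouse brains was sequenced as single reads of 50 bases. Per the study's methods and the submitters' processing notes, reads were trimmed with Trim Galore 0.5.0, cleared of ribosomal, mitochondrial, phiX and adapter sequence with Bowtie2 2.3.4.1, aligned to GRCm38 with STAR and assigned to genes with featureCounts (Subread 1.6.2). The authors deposited raw read counts per Ensembl gene, without normalisation, for 54532 identifiers in each library. Library totals lay between 12956880 and 15223424 counts. The strand setting is not given in the sources used here. Of 454 genes whose exons lie wholly opposite exons on the other strand, 27.5% reached 10 counts in total. So did 33.5% of 42753 genes with no exonic overlap, but only 0.399% of 752 genes wholly within exons on the same strand. The counts thus behaved as if strand was used.

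Members were matched by GENCODE M21 symbol (GRCm38). Low genes were removed with filterByExpr, libraries were scaled by TMM, and the quasi-likelihood F test of edgeR 4.0.16 (R 4.3.3) compared the genotypes over the 6 libraries without further terms. P-values were adjusted by Benjamini-Hochberg across the 16731 genes tested, with a threshold of 0.05. Standard errors come from the F statistic, and intervals are 95% intervals. CPM uses the effective library size. Ratios of genes within a library were compared by exact permutation (two-sided, 3 against 3), for which p cannot go below 0.1. The edgeR, DESeq2 and limma-voom fits were also run on counts simulated with the same dispersion for every gene. Real libraries need not share that setting, and no result here rests on that run. Alternatives were RLE and upper-quartile scaling, DESeq2 1.42.0, limma-voom (limma 3.58.1), omission of the filter, a filter of 1 CPM in 3 libraries, each library left out, and the replicate number as a block. The ratios were recomputed with each library left out, within same-numbered pairs and on raw counts without length. Members and lists were chosen with earlier results of these data known. The genes named are the members, list genes past the threshold or with the highest and lowest change of their list, the nearest tested genes around each member past the threshold, the 3 genes with the most similar profile, and sex-linked genes as a check. Genes overlapping a member, Suv39h1, Ehmt2, Morc1, Atf7ip2, Folr1, Kcne2 and Gm4349 were named outside this rule, after their values were seen. Sequences come from GENCODE M21 transcripts and from RefSeq promoter windows (GRCm38.p6). The labels number the samples of each genotype and tie none to a litter, and the study describes the brains as those of littermates without saying which brains share a litter.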

Additional observations from a re-analysis of the deposited data

How the results depend on the processing

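Under 13 alternatives each, Mphosph8 stayed lower (log2 fold change -1.13 to -0.85) and Fam208a higher (0.67 to 0.91) with an adjusted p under 0.05 in every one, and Morc2a stayed higher (0.36 to 0.50). Without 1 library Morc2a lost its adjusted p under 0.05 in 5 of 6 fits, with log2 fold changes from 0.36 to 0.50, so the number of members higher went from 2 to 1 in those fits and stayed at 2 in the sixth. The cause was not tested. Setdb1 (-0.14 to -0.01) and Atf7ip (0.04 to 0.14) kept their direction. Signs near 0 changed for Fam208b without control replicate 1 (-0.05), mutant replicate 2 (-0.04) and mutant replicate 3 (-0.03), within a range of -0.05 to 0.12 over the fits without 1 library, and for Pphln1 without mutant replicate 3 (0.01), within -0.11 to 0.01. The 4 ratios kept their direction in the 6 alternatives that leave out 1 library. Pairing by number and raw counts without length cannot move their log2 difference. Pathway genes called stayed at 0 under all 13. Over all genes the number past the threshold was 105, and it was 242 without the filter on low counts and 66 to 162 with 1 library left out.

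Whether the replicate numbers pair the brains is not known. Same-numbered libraries deviated with correlations of 0.116, -0.173 and 0.09, and differently numbered ones with -0.215 to 0.173. With 3 libraries per group these values cannot tell whether brains shared a litter. With the replicate block the adjusted p was 3.15e-05 for Mphosph8, 1.72e-05 for Fam208a (log2 fold change 0.77) and 0.00715 for Morc2a (0.45), and 124 genes were past the threshold against 105. The block changed no call of a member. Between 12956880 and 15223424 counts per library, low genes such as Morc2b have wide intervals, from 0.29 to 1.30 on the log2 scale.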
